A study of Mus musculus with 141 samples.

Results

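The acyl-CoA synthetases and thioesterases are the enzymes that attach coenzyme A to fatty acids and take it off again. Every gene whose symbol begins with Acot, Acsm, Acsl, Acsbg or Acnat followed by a number was followed here, which gave 27 of the 24423 genes in the files. The list holds 5 Acsl, 2 Acsbg, 5 Acsm, 13 Acot and 2 Acnat genes. The rule uses only the symbols and no measured value, but it was set with earlier results of these data known. The files give their expression in whole liver, whole lung and whole kidney of 47 Collaborative Cross strains, which are inbred mouse lines that carry recombined genomes of the same founders. Each strain was represented by 1 adult male of 8 to 12 weeks, so the 3 tissues form groups of 47 libraries from the same 47 mice. All mice ate the NTP 2000 wafer diet and spent 6 hours on each weekday, for 2 weeks, in mesh chambers supplied with clean air. There was no treated group, and a difference between strains cannot be told apart from a difference between individual mice. Total counts ranged from 1738046 to 42158454 per library, with a median of 9043226.

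A free fatty acid must be joined to coenzyme A before it can be oxidised, elongated, or built into triglycerides and phospholipids. The Acsl enzymes activate long chains, the Acsbg enzymes (the "bubblegum" group) very long chains, and the Acsm enzymes medium chains in the mitochondrial matrix. The Acot enzymes hydrolyse acyl-CoA back to the free acid and coenzyme A in the cytosol, mitochondria or peroxisomes, and the Acnat enzymes are peroxisomal transferases that can pass an acyl chain to an amino acid such as taurine. Liver and the proximal tubule of the kidney are known for a high capacity for fatty acid oxidation, and several Acot genes are textbook targets of PPAR-alpha, a nuclear receptor that binds fatty acids.

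Several of these genes lie side by side. In NCBIM37, the mouse build of the alignment, *Acot1* to *Acot6* occupy chromosome 12 from 85328811 to 85452299, all 5 Acsm genes lie on chromosome 7 between 126669818 and 126931027, and *Acnat1* and *Acnat2* are neighbours on chromosome 4. Neighbouring copies can be nearly identical, which matters because the reads were 50 bases long and only uniquely aligned reads were kept. Coding bases 601 to 720 of *Acot1* and the aligned bases 724 to 843 of *Acot2*, counted from the start codon, are shown first because they hold no difference at all:
Acot1: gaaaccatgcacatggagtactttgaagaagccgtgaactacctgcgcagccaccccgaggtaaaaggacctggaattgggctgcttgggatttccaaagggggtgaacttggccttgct
Acot2: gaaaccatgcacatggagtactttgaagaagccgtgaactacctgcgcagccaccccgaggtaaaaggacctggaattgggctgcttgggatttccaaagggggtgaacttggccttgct
The same stretch of the Acnat genes, bases 601 to 720 of each, held 3 differences, which are in capitals:
Acnat1: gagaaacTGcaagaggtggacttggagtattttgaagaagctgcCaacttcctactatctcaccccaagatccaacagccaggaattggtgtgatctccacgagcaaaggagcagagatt
Acnat2: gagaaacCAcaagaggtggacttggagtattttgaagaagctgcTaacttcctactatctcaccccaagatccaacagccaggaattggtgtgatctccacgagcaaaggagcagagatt
Over the whole coding sequence, *Acot1* and *Acot2* were 95.5% identical with a longest identical run of 273 bases, and *Acnat1* and *Acnat2* were 96.2% identical with a run of 200 bases. Of the 50-base windows of *Acot1*, 34.8% also occurred in *Acot2*, and 28% of those of *Acnat1* occurred in *Acnat2*. *Acot3* and *Acot4*, the pair on which a later result turns, were only 75.9% identical, and 4.60% of the windows of *Acot3* occurred in *Acot4*. Both overlap the lincRNA 4732463B04Rik on the opposite strand, over 12% of the exon bases of *Acot3* and 24.5% of those of *Acot4*. Whether strand was used in counting is not given in the sources used here, so reads of that RNA cannot be told apart from theirs. Levels of *Acot1* against *Acot2*, and of *Acnat1* against *Acnat2*, are uncertain too, since reads that aligned to both copies were dropped. Whether other reads were placed on the wrong copy was not tested.

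The 250 bases before the RefSeq start of *Acot1*, *Acot2*, *Acot3* and *Acot4*, clustered genes that varied together between strains, are shown next, from GRCm38.p6 and on the plus strand, with the start used being the first of the 2 listed for *Acot3*. *Acot6*, which lies in the same cluster and varied with *Acot2*, had no entry. Capitals mark the match in *Acot4* to a direct repeat of AGGTCA with 1 base between the copies, the form of site that PPAR-alpha is known to bind:
Acot1 (chr12:84009252-84009501): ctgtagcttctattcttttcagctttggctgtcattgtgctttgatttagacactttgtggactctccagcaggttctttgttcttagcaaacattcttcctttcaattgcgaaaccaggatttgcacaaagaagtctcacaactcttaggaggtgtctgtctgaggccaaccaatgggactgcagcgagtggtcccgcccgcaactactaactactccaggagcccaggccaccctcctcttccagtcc
Acot2 (chr12:83987611-83987860): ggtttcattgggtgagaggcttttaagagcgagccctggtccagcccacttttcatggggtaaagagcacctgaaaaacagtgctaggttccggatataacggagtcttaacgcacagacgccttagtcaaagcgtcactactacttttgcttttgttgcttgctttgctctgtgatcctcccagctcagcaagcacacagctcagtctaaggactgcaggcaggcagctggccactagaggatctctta
Acot3 (chr12:84051894-84052143): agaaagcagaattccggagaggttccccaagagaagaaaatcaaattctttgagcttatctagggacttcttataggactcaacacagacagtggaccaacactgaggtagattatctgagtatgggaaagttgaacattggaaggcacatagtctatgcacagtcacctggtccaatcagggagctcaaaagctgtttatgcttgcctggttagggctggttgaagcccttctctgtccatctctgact
Acot4 (chr12:84038129-84038378): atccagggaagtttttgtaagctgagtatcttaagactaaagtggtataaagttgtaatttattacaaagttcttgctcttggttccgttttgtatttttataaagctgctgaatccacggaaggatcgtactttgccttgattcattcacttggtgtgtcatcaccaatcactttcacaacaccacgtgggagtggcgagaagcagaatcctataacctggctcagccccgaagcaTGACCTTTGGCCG
The motif AGGTCANAGGTCA was searched on both strands with up to 2 mismatches, in windows that also held the 50 bases after the start. It was found in 1268 of 32851 promoters (3.86%) and in 2 of the 32 promoters of the 24 listed genes that had one, namely *Acot4* (minus strand, 2 mismatches, 13 bases before the start) and *Acot12* (TGACCTCTCACCT, minus strand, 1 mismatch, 110 bases before the start). A match in these letters is a description of the sequence and not evidence of binding.

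The tissue labels were checked against marker genes. Hepatocyte markers summed to between 50460 and 175854 CPM in liver and to at most 573 CPM in lung and 1011 CPM in kidney, where CPM is the read count scaled to library size by TMM. Markers of alveolar and airway epithelium summed to between 6855 and 15999.9 CPM in lung, and markers of the proximal tubule to between 12403 and 40913 CPM in kidney. Some libraries stood apart. The proximal tubule markers summed to 1056 CPM in the liver of CC035 and 945 CPM in that of CC033, with all 5 markers above their values in the other 45 livers, whose sums reached 391 CPM (median 38.6). Leaving out both strains, a step added after seeing the data, changed 1 of the 57 tissue calls of the listed genes (*Acsl4*, which became higher in liver than in kidney at 1.01). The kidney and lung of CC059 had the highest sums of adipocyte markers in their tissue, at 559 and 199.9 CPM. The part of other tissue in the listed genes was not tested there. The liver library of strain CC006 also stood apart. Its 6 adrenal cortex markers summed to 3004 CPM, against at most 38.0 CPM in the other 46 livers, with *Star* at 1801 CPM and *Cyp11b1* at 428 CPM, while 4 of the 6 markers had a median of 3 counts or fewer over all livers. *Acsbg1*, which is known from brain and adrenal gland, had 51.0 CPM (281 counts) in that library and between 0 and 2.47 CPM in the other 46 livers. Its mean in liver was 1.34 CPM with CC006 and 0.263 CPM without. None of the 57 tissue calls changed when this strain was left out, a step also added after seeing the data.

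Levels are first described in TPM, which is scaled by transcript length and can be compared between genes. There is a limit to this. For 8 of the 27 genes (*Acsl1*, *Acsl3*, *Acsl4*, *Acsl6*, *Acsm2*, *Acsm3*, *Acot7* and *Acot9*) the files list several transcripts, and over all genes the median TPM in liver was 0.03 for genes with several transcripts and 0.31 for genes with 1. The same gap was present in lung (0.30 against 3.26) and kidney (0.13 against 1.14). Its cause was not tested, and levels are ranked below only among the 19 genes with 1 transcript. Comparing 1 of the other 8 genes between tissues assumes that the gap acts alike in each tissue, which was not tested.

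Summed over the 27 genes, the median was 1210 TPM in liver (range 323 to 1999), 401 TPM in lung (93.7 to 543) and 1561 TPM in kidney (546 to 2835). A median of at least 10 TPM was reached by 9 of them in liver, by 7 in lung and by 14 in kidney. The highest medians in liver were those of *Acsm1* (426 TPM), *Acsl5* (298), *Acsm5* (142) and *Acot12* (101). In lung they were *Acsl5* (202 TPM) and *Acot13* (61.0), and in kidney *Acsm1* (402 TPM), *Acot13* (285), *Acot12* (201) and *Acsm5* (193). No 2 neighbours in these orders had ranges that were apart. *Acot12* exceeded *Acsm5* in 27 of 47 kidneys, whereas *Acsl5* exceeded *Acot13* in 47 of 47 lungs. In liver, *Acsm1* exceeded *Acsl5* in 37 of 47 libraries.

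**Figure D1:**
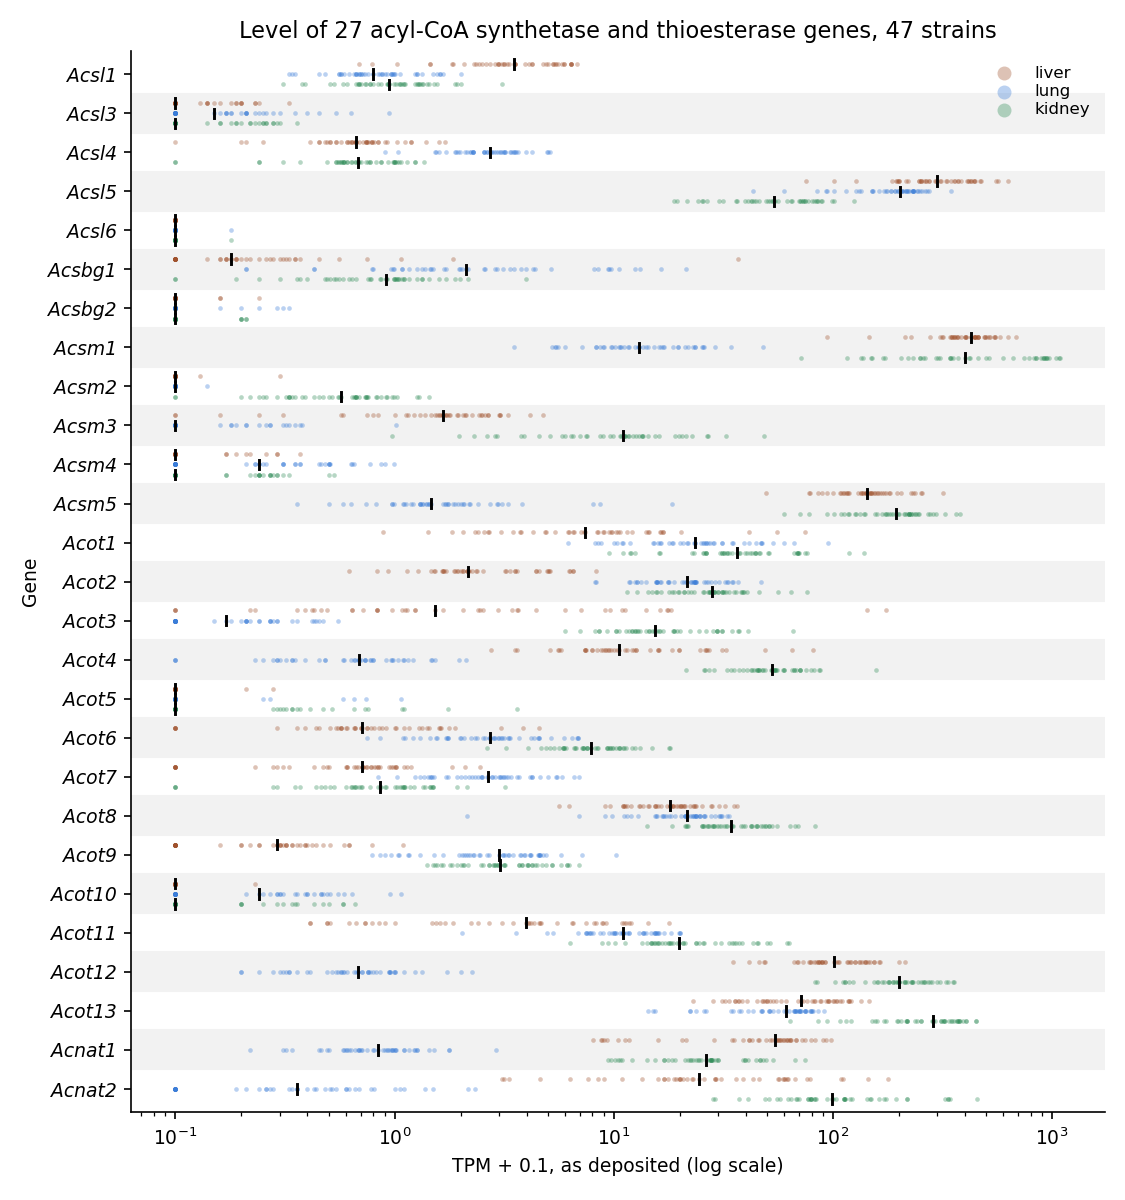
Level of each of the 27 genes (rows) on a log scale of TPM + 0.1, with 1 point per library in liver (brown), lung (blue) and kidney (green), and black ticks at the tissue medians. *Acsm1*, *Acsm5*, *Acot12* and both Acnat genes are high in liver and kidney and low in lung, while *Acsl5* is at 42.9 TPM or more in every liver and lung library.

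Among the long-chain synthetases, *Acsl5*, an enzyme of the endoplasmic reticulum and mitochondrial membranes, had 298 TPM in liver as a median (75.3 to 629), 202 TPM in lung (42.9 to 346) and 53.9 TPM in kidney (18.7 to 125). It held a median of 98.8% of the summed Acsl TPM in liver, but the other 4 Acsl genes are all listed with several transcripts, so this share is a value of these files. *Acsl1*, which channels fatty acids to oxidation and triglyceride synthesis, had medians of 3.41, 0.70 and 0.84 TPM in liver, lung and kidney. *Acsl4*, which prefers arachidonic acid, had 0.57, 2.63 and 0.58 TPM. *Acsl3*, known from lipid droplets, had at most 0.84 TPM in any library. *Acsl6*, a gene of brain, was at 0 in all livers and in 46 of 47 lungs and kidneys. Of the bubblegum enzymes, *Acsbg1* had medians of 0.08, 2.01 and 0.81 TPM in the same order, and *Acsbg2*, known from testis, reached at most 0.23 TPM.

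*Acsm1*, which can activate butyrate, was the most abundant gene of its family in each tissue, with 426 TPM in liver as a median (94.1 to 681), 12.9 TPM in lung (3.41 to 48.0) and 402 TPM in kidney (71.8 to 1092). *Acsm5* had 142, 1.37 and 193 TPM. *Acsm3* had 1.57 TPM in liver and 11 TPM in kidney, and in lung 30 of 47 libraries were at 0 and none had more than 3 counts. *Acsm2* was above 3 counts in 38 kidneys and in no liver or lung, with a kidney median of 0.47 TPM. *Acsm4* had a median of 0.14 TPM in lung and 0 in the other tissues.

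The thioesterases were led by different genes in different tissues. *Acot12*, a cytosolic enzyme that hydrolyses acetyl-CoA, had 101 TPM in liver (34.9 to 213), 0.58 TPM in lung (0.10 to 2.15) and 201 TPM in kidney (83.1 to 356). *Acot13*, which binds the phosphatidylcholine transfer protein, had 71.8 TPM in liver (23.0 to 146), 61.0 TPM in lung (14.2 to 91.1) and 285 TPM in kidney (63.6 to 450). It was the leading thioesterase of lung and kidney, with 39.1% and 39.5% of the summed Acot TPM. Of the peroxisomal enzymes, *Acot8* had 18, 21.4 and 34.3 TPM in liver, lung and kidney, *Acot4* had 10.5, 0.59 and 52.8, *Acot3* had 1.43, 0.07 and 15.4, and *Acot6* had 0.61, 2.63 and 7.78. The cytosolic *Acot1* had medians of 7.29, 23.5 and 36.4 TPM, and the mitochondrial *Acot2* had 2.06, 21.5 and 28. *Acot11*, known from brown fat, had 3.89, 10.9 and 19.8 TPM. Mitochondrial *Acot9* was at 0.19 TPM in liver and near 3 TPM in lung and kidney (2.89 and 2.92). *Acot7*, the main brain thioesterase, had its highest median in lung (2.57 TPM). *Acot5* and *Acot10* had medians of 0 in liver and kidney, and *Acot10* is 97.2% identical to *Acot9* over its coding sequence.

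*Acnat1* had 54.3 TPM in liver as a median (7.97 to 98.1) and 26.2 TPM in kidney (9.36 to 74.8), whereas *Acnat2* had 24.5 TPM in liver (2.99 to 178) and 99.0 TPM in kidney (28.2 to 457). *Acnat1* therefore held a median of 58.6% of the pair's TPM in liver, and *Acnat2* held 81.3% in kidney. In lung their medians were 0.74 and 0.26 TPM.

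Tissues were compared with limma-voom over 12127 genes, with strain as a block, and a gene was called at an adjusted p (q) of at most 0.1 together with a log2 fold change of 1 or more in either direction. Of the 27 genes, 19 passed the filter (over 1 CPM in 30% or more of the libraries), and *Acsl3*, *Acsl6*, *Acsbg2*, *Acsm2*, *Acsm4*, *Acot5*, *Acot7* and *Acot10* did not. Against lung, 12 genes were higher in liver, 3 were lower and 4 were not called. Over all genes tested, 23.9% were called higher and 31% lower in liver than in lung. The median log2 fold change was 2.21 over the 19 genes and -0.06 over all genes. Against kidney, 3 of the 19 were higher in liver and 8 lower, where 15.6% and 20.8% of all genes were called, with medians of -0.93 for the listed genes and -0.00 for all genes. Lung was higher than kidney for 3 and lower for 13 of the 19, where 25.5% and 20.6% of all genes were called, with medians of -1.997 and 0.04. In whole tissue, a cell type that is rare and a cell type with less RNA of a gene per cell cannot be told apart.

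**Figure D2:**
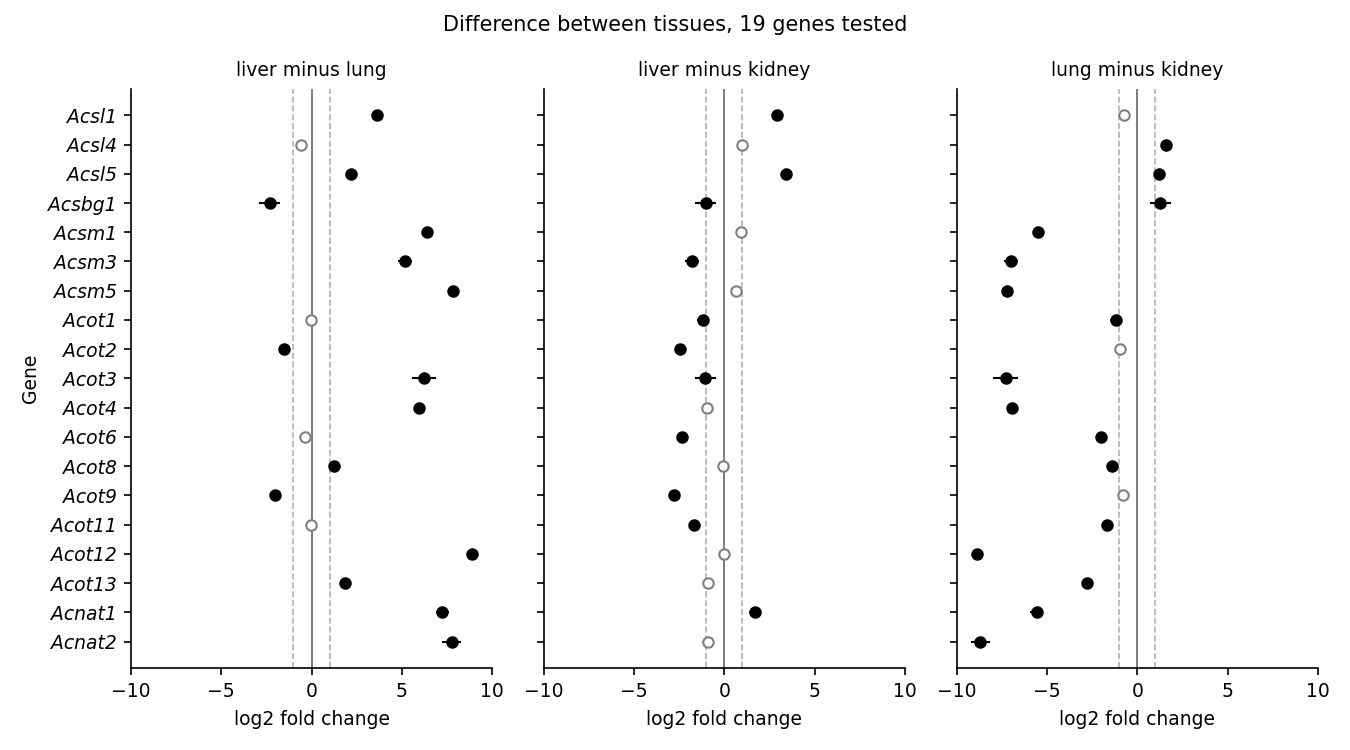
Log2 fold change of the 19 genes tested (rows) for liver minus lung, liver minus kidney and lung minus kidney, with bars of 2 standard errors on each side and dashed lines at the fold change threshold. Filled points were called, and 10 genes were called to the right for liver minus lung and to the left for lung minus kidney.

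The most frequent pattern was a low level in lung: 10 genes (*Acsm1*, *Acsm3*, *Acsm5*, *Acot3*, *Acot4*, *Acot8*, *Acot12*, *Acot13*, *Acnat1* and *Acnat2*) were called both higher in liver than in lung and lower in lung than in kidney. Of all genes tested, 13.1% were called in both ways. *Acot12* had between 104 and 373 CPM in liver (median 177) and between 0.0531 and 2.29 CPM in lung (median 0.393), and the ranges did not overlap. Its log2 fold change was 8.88 (standard error 0.09, q = 2.86e-95 by limma-voom), with liver higher in 47 of 47 mice. Kidney, with 130 to 314 CPM, differed from lung by nearly as much (-8.91 for lung minus kidney, standard error 0.09, q = 5.47e-95), and the difference between liver and kidney did not pass the test (-0.03, standard error 0.06, q = 0.646). Over 47 lungs, the small amount of *Acot12* had a rho of 0.525 with hepatocyte markers. The 5 marker genes summed to 1.42 to 573 CPM, with 1 of the 5 (*Serpina1a*) at a median of 3 counts or fewer. *Acot12* itself had 3 counts or fewer in 16 of 47 lungs. For *Acsm1*, *Acsm5*, *Acot3*, *Acot4*, *Acnat1* and *Acnat2*, rho with the same markers ran from -0.120 (*Acot4*) to 0.372 (*Acnat2*). For these genes and *Acot12*, rho with proximal tubule markers ran from 0.109 (*Acot12*) to 0.341 (*Acsm5*). With markers of alveolar and airway epithelium it ran from -0.396 (*Acot4*) to 0.351 (*Acsm1*). The part of other tissue in these lung values was not tested.

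*Acsm5* had 111 to 421 CPM in liver and 0.126 to 8.26 CPM in lung, and *Acsm1* had 243 to 704 CPM in liver and 2.61 to 17.7 CPM in lung. The log2 fold changes were 7.86 (standard error 0.08, q = 1.64e-96 by limma-voom) and 6.41 (standard error 0.13, q = 9.95e-69), with liver higher in 47 of 47 mice for both genes. Their ranges in liver and lung were far apart, but in liver and kidney they overlapped and neither was called. *Acnat2* had 4.46 to 167 CPM in liver, 13.5 to 181 CPM in kidney and at most 0.775 CPM in lung, where 39 of 47 libraries had 3 counts or fewer. Its log2 fold change was 7.77 for liver minus lung (standard error 0.27, q = 9.84e-49 by limma-voom) and -8.70 for lung minus kidney (standard error 0.27, q = 1.26e-52), and against the floor of 3 counts in a lung of median depth (0.220 CPM) it was at least 103-fold higher in liver and at least 251-fold higher in kidney at the median. *Acot3* and *Acsm3* had no lung library above 3 counts, so only a bound can be given. Against the same floor, *Acot3* was at least 13.8-fold higher in liver and at least 61.4-fold higher in kidney at the median, and *Acsm3* at least 11.8-fold and 41.3-fold.

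*Acot8* and *Acot13* were also lowest in lung, by smaller amounts. *Acot13* had 12.3 to 45.7 CPM in liver, 3.77 to 12.3 CPM in lung and 26.7 to 88.7 CPM in kidney, and liver exceeded lung in 47 of 47 mice (1.86 on the log2 scale, standard error 0.06, limma-voom q = 2.6e-54). *Acot8* had a log2 fold change of 1.27 for liver minus lung (standard error 0.06), again with liver higher in 47 of 47 mice. Of its exon bases, 12.2% overlap *Snx21* on the opposite strand. *Snx21* had a median of 10.8 CPM in lung, where *Acot8* had 4.87 CPM. Its rho with *Acot8* was 0.233 in lung and 0.554 in kidney. The part of such reads in the values of *Acot8* was not tested. On log2(TPM + 1), which differs in length correction, scaling and added constant, and where the median of all genes moved by -1.16 for liver minus lung, *Acot13* fell to 0.36 and *Acot8* turned to -0.16, which is still above that shift.

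*Acsl4* and *Acsl5* ran the other way between lung and kidney, being higher in lung. *Acsl5* was highest in liver, with 359 to 885 CPM, intermediate in lung (98.2 to 189 CPM) and lowest in kidney (27 to 115 CPM), and the order held in 47 of 47 mice for each pair of tissues. The log2 fold changes were 2.21 for liver minus lung (standard error 0.07, q = 1.57e-50 by limma-voom), 3.43 for liver minus kidney and 1.22 for lung minus kidney. On log2(TPM + 1) the first of these fell to 0.73 and the call was lost. *Acsl1* was higher in liver than in lung (3.64) and kidney (2.89), in 47 of 47 mice. *Acsl4* was higher in lung than in kidney in 47 of 47 mice (1.601, standard error 0.12), and its difference of liver minus lung (-0.61) was not called.

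Of the 19 genes tested, 1 (*Acsbg1*) was called higher in lung than in both other tissues, as were 19.5% of all genes. Lungs had between 0.0957 and 17.6 CPM (median 1.32), kidneys between 0 and 3.89 CPM (median 0.690) and livers a median of 0.154 CPM. The log2 fold change was -2.31 for liver minus lung (standard error 0.29, q = 4.5e-12 by limma-voom) and 1.27 for lung minus kidney (standard error 0.29, q = 3.15e-05), and lung exceeded kidney in 33 of 47 mice. Since 40 of 47 livers had 3 counts or fewer, the fold against liver is better read as a bound: against 3 counts in a liver of median depth (0.544 CPM), the median was at least 2.43-fold higher in lung and at least 1.27-fold higher in kidney. The lungs of CC031, CC042 and CC059 had 17.6, 11.1 and 8.56 CPM, and without these strains the difference between lung and kidney was 0.98, under the threshold. The same 3 lungs ranked 1 to 3 for *Tgm3*, *Grhl3* and *Asprv1*, genes of stratified and keratinising epithelium, with 159 to 184 CPM of *Tgm3* against a median of 1.03 CPM over all lungs. The part of other tissue in these libraries was not tested.

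Called higher in kidney than in both other tissues were 5 genes (*Acsm3*, *Acot1*, *Acot3*, *Acot6* and *Acot11*), as were 7.6% of all genes tested. *Acot2* had 10.4 to 51.1 CPM in kidney, 6.79 to 17.5 CPM in lung and 0.688 to 9.56 CPM in liver, and the ranges of liver and kidney did not overlap. Its log2 fold change was -2.45 for liver minus kidney (standard error 0.08, q = 9.21e-49 by limma-voom) and -1.51 for liver minus lung. *Acot9* was also called lower in liver, but only 3 of 47 livers had more than 3 counts, and the bound from that floor (0.544 CPM) was at least 3.13-fold higher in kidney and at least 1.84-fold higher in lung at the median. *Acot11* had 15.9 to 91.3 CPM in kidney and 0.986 to 54.8 CPM in liver, with liver lower in 45 of 47 mice (-1.68, standard error 0.16, q = 9.08e-18 by limma-voom). Of its exon bases, 20.8% overlap *Fam151a* on the opposite strand, which had a median of 41.0 CPM in kidney and 0 in liver and a rho of 0.125 with *Acot11* over the kidneys. The part of such reads in this difference was not tested. Its difference between liver and lung was -0.00 on TMM-scaled counts (q = 0.985) and -1.47 on log2(TPM + 1), beside the shift of -1.16 for all genes. For *Acot1* the same values were -0.01 and -1.52. *Acsm3* was lower in liver than in kidney in 46 of 47 mice (-1.80, standard error 0.19, q = 1.97e-15 by limma-voom). Of its exon bases, 39.7% overlap *Eri2*, again on the opposite strand.

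*Acnat1*, *Acsl1* and *Acsl5* were the 3 genes called higher in liver than in kidney, and the same 3 were also called higher in liver than in lung, where 9.87% of all genes tested were called so against both tissues. *Acnat1* had 21.6 to 284 CPM in liver and 13.7 to 108 CPM in kidney, and liver was higher in 41 of 47 mice (1.68, standard error 0.15, q = 1.84e-19 by limma-voom). *Acnat2* pointed the other way, with kidney higher in 35 of 47 mice, but its log2 fold change of -0.93 fell short of the threshold. The fold change of *Acnat1* was 0.64 on log2(TPM + 1), under the threshold but still above the shift of all genes on that scale (-0.71). *Acot3* was called lower in liver than in kidney (-1.06, standard error 0.29), and this was -0.83 and not called in a fit of those 2 tissues alone, or without the 4 strains that have a library under 3000000 counts.

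Other genes that make, use or remove acyl-CoA were read from lists, which were drawn up with earlier results of these data known. Of 18 tested genes of mitochondrial beta-oxidation, 17 were higher in liver than in lung and 17 were lower in lung than in kidney, while 5 were higher and 2 lower in liver than in kidney. The median log2 fold changes were 2.91, -2.41 and 0.49. Over all genes tested, 23.9% were called higher and 31% lower in liver than in lung. For lung against kidney the shares were 25.5% and 20.6%, and for liver against kidney 15.6% and 20.8%. These shares stand beside every list below too. *Acaa2*, the thiolase of the pathway, had a mean of 975 CPM in liver, 57.1 CPM in lung and 104 CPM in kidney. Of 17 peroxisomal beta-oxidation genes, 14 were higher and 1 lower in liver than in lung (median 4.33), and 8 were higher and 1 lower in liver than in kidney (median 0.96). Between lung and kidney, 2 were higher and 15 lower in lung (median -2.48). *Pecr*, a peroxisomal enoyl-CoA reductase, was the most changed against lung, with 200 CPM in liver, 2.48 CPM in lung and 257 CPM in kidney.

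Of 11 other acyl-CoA synthetases, 8 were higher and 3 lower in liver than in lung, and 3 were higher and 2 lower in liver than in kidney, with medians of 1.96 and 0.21. Between lung and kidney, 2 were higher and 5 lower in lung (median -0.97). *Slc27a5*, a bile acid-CoA synthetase, had a mean of 1167 CPM in liver and close to 1 CPM elsewhere (0.989 CPM in lung, 1.11 CPM in kidney). *Slc27a2*, a very long-chain synthetase, had 6.58 CPM in lung and 3128 CPM in kidney (-9.19 for lung minus kidney). Of 5 other thioesterases, 4 were higher in liver than in lung and 4 were lower in lung than in kidney, with medians of 2.76 and -2.57. Between liver and kidney, 1 was higher and 1 lower in liver (median 0.18). *Baat*, which joins bile acids to glycine or taurine, had 319 CPM in liver, 0.357 CPM in lung and 6.06 CPM in kidney. *Baat* is related to the Acot and Acnat genes but was called higher in liver than in kidney, at 6.42.

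Of 12 genes of coenzyme A synthesis and breakdown, 8 were higher in liver than in lung and 7 were lower in lung than in kidney, with medians of 2.43 and -2.95. In lung 1 was higher than in kidney. Between liver and kidney, 2 were higher and 2 lower in liver (median -0.20). *Nudt7* and *Nudt19*, peroxisomal hydrolases of coenzyme A, divided between the tissues: *Nudt7* was at 181 CPM in liver and 2.62 CPM in lung, and *Nudt19* at 608 CPM in kidney and 7.68 CPM in lung. *Vnn3* fell from 46.2 CPM in liver to 0.196 CPM in kidney. The 2 tested genes of glycine conjugation, *Glyat* and *Keg1*, were both higher in liver than in lung, and *Keg1* was at 277 CPM in liver against 1266 CPM in kidney (-2.21). Of 12 genes of triglyceride and phospholipid acyl transfer, 7 were higher and 3 lower in liver than in lung (median 1.76), and the largest change was that of *Lpcat1*, which makes surfactant phosphatidylcholine, with 116 CPM in lung and 2.87 CPM in liver (-5.44). Between liver and kidney, 5 of these 12 were higher in liver, with *Lpin2* the most changed at 4.70, and 2 were lower. Between lung and kidney, 2 were higher and 4 lower in lung. Of 17 textbook PPAR-alpha targets, 14 were higher and 2 lower in liver than in lung, and 8 were higher and 4 lower in liver than in kidney, with medians of 2.93 and 0.96. Between lung and kidney, 1 was higher and 10 lower in lung (median -1.79). *Creb3l3* had 358 CPM in liver and 0.581 CPM in lung, *Fabp1* was at 3995 CPM in liver against 3.65 CPM in kidney, and *Cyp4a10* had 103 CPM in kidney and 0.411 CPM in lung.

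Strains differed widely for some of the genes, above all for *Acot3* in liver. The spread of a gene was measured as the ratio of its 90th to its 10th percentile of CPM, for those genes that exceeded 1 CPM in 50% or more of a tissue's libraries. In liver the ratio was 64 for *Acot3*, 16.2 for *Acot11*, 10.3 for *Acnat2* and 8.21 for *Acnat1*, where the median of all 8836 genes was 1.90. The 10th percentile of *Acot3* was 0.319 CPM, under 3 counts in a liver of median depth (0.544 CPM), so the size of its ratio is not resolved. At the other end, *Acsm1* had 1.49 and *Acot12* had 1.80. In kidney the widest were *Acsm3* (5.42), *Acsm1* (4.72) and *Acnat2* (4.50), against 1.82 over all genes. In lung *Acsbg1* had 12.5, and of the genes with a mean of at least 5 CPM *Acot1* (3.29), *Acsm1* (3.09) and *Acot13* (2.26) were the widest, against 1.83 over all genes. *Acsm1* was thus narrow in liver and wide in kidney, where it ran from 66.2 to 668 CPM. A wide ratio includes counting error in genes of low count. Over 9 lists of cell type markers and the listed genes that passed this filter of a tissue, the largest rank correlations were those of proximal tubule markers with *Acsm3* in kidney (rho = 0.510), adipocyte markers with *Acsl5* in liver (0.476, sums from 2.08 to 195 CPM, 5 of 6 markers at a median of 3 counts or fewer) and macrophage markers with *Acnat2* in kidney (-0.470, sums from 30.2 to 125 CPM). Their part in the spread was not tested.

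**Figure D3:**
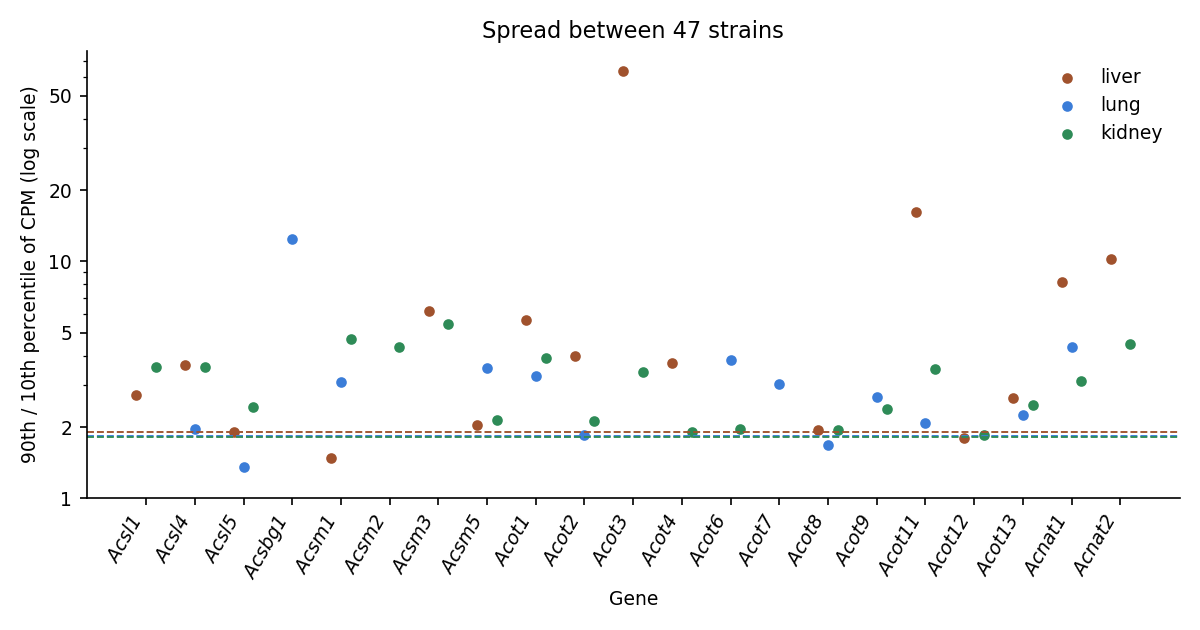
Ratio of the 90th to the 10th percentile of CPM over 47 strains (log scale) for each gene that passed the filter of a tissue, in liver (brown), lung (blue) and kidney (green), with dashed lines at the median of all genes. *Acot3* in liver stands at 64, and *Acot11*, *Acnat2* and *Acnat1* in liver stand at 16.2, 10.3 and 8.21.

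*Acot3* in liver ranged from 0 to 239 CPM with a median of 3.04. The livers of CC012 (239 CPM) and CC032 (228 CPM) lay far above the third, CC061 (29.8 CPM), and 11 of 47 livers had 3 counts or fewer. The same 2 livers were the highest for *Acot4*, with 97.3 and 94.5 CPM against a median of 15.1 and a next highest value of 52.8 in CC024. In kidney they parted: CC012 had the highest *Acot3* of all strains (53.6 CPM) and CC032 the lowest (5.67 CPM). *Acot1* in liver was led by other strains, CC021 (59.5 CPM), CC015 (49.1) and CC055 (33.8), with a median of 6.54 CPM. *Acot11* in liver ran from 0.986 to 54.8 CPM with a median of 12.6, and *Acnat2* from 4.46 CPM to 167 CPM in CC015.

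Whether a mouse that was high in 1 tissue was also high in another was tested with Pearson's r on rank inverse normal values over 47 strains, with 100000 permutations and adjustment over all genes of the tissue pair. The study's own models hold a term for sequencing batch, which the labels do not give, so batch and strain cannot be told apart in any value over strains. Such a shared pattern was found for 2 of 10 genes between liver and lung (12.6% of all genes were called), for 6 of 16 between liver and kidney (23.7%) and for 2 of 12 between lung and kidney (16.1%). All 10 of these values were positive. *Acot13* was called in every pair, with r = 0.656 for lung and kidney (rho = 0.687, p = 1e-05 for both, the smallest that the permutations can give, q = 0.000582), 0.518 for liver and lung (rho = 0.563, q = 0.00474) and 0.473 for liver and kidney (rho = 0.543, q = 0.0093). Leaving out the 2 strains that lay farthest from the median gave 0.655, 0.492 and 0.423. On TPM as deposited the call between liver and lung was lost (r = 0.340, q = 0.439).

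*Acot11* was shared between liver and kidney (r = 0.519, rho = 0.535, permutation p = 0.00021 and 0.00018, q = 0.00373) and between liver and lung (r = 0.471, rho = 0.436, p = 0.00078 and 0.00219, q = 0.0156). With the 2 strains most distant from the median left out, the r values were 0.507 and 0.440. On TPM as deposited the second was not called (r = 0.364, q = 0.365). *Acsm5* (r = 0.512, rho = 0.553, p = 0.00031 and 8e-05, q = 0.00508) and *Acot4* (r = 0.442, rho = 0.445, p = 0.00202 and 0.00197, q = 0.0191) were shared between liver and kidney, and *Acot8* between lung and kidney (r = 0.408, rho = 0.432, p = 0.00435 and 0.00259, q = 0.0405). The remaining calls for liver and kidney were weaker: *Acot1* had r = 0.361 (q = 0.0674), which was 0.242 without the farthest 2 strains, and *Acsm3* had r = 0.345 (q = 0.0796), which was 0.251. *Acsm1*, the most abundant gene of its family, had r = -0.128 between liver and kidney (q = 0.579). *Acsl5* lay between -0.110 and 0.090 in the 3 pairs, with q of at least 0.718.

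**Figure D4:**
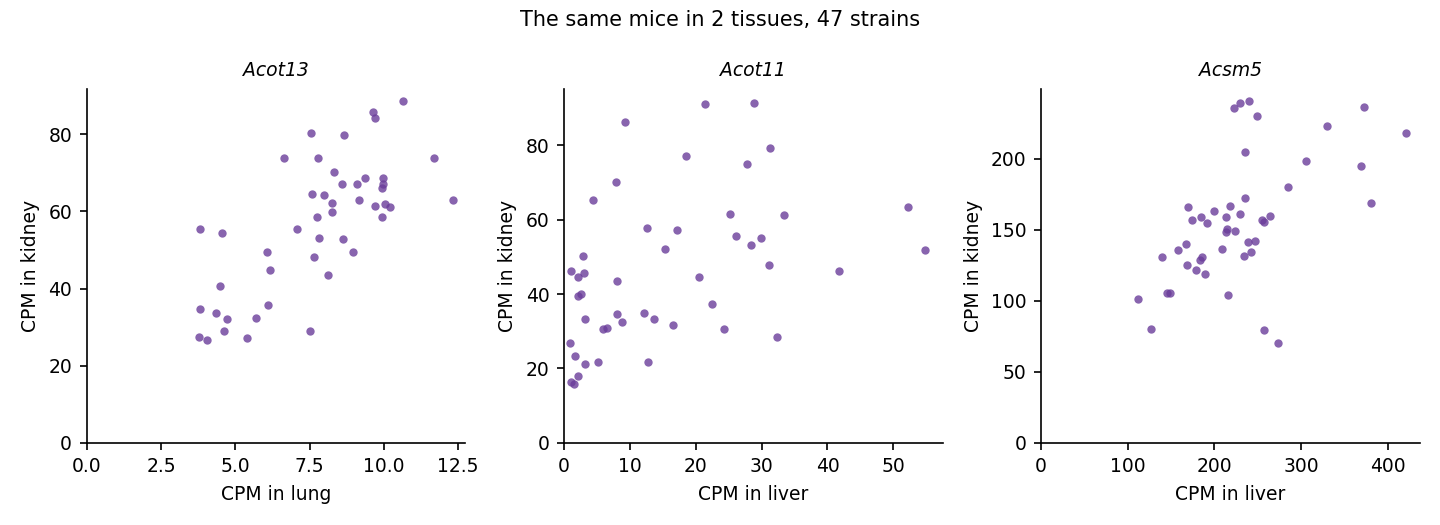
CPM of *Acot13* in lung and kidney, and of *Acot11* and *Acsm5* in liver and kidney, with 1 point per strain on linear axes. Strains with more *Acot13* in lung tend to have more in kidney (r = 0.656 on rank inverse normal values), while the points of *Acot11* and *Acsm5* scatter more widely.

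*Cyp4a14*, a textbook PPAR-alpha target, was the 1 reference gene for that pathway across strains. It ranged from 0.132 to 2717 CPM in liver (median 14.6) and from 0.349 to 168 CPM in kidney (median 4.56). None of the 16 listed genes tested in liver and none of the 19 in kidney was called for a correlation with it, where 0.034% of all genes in liver and 0% in kidney were called. The lowest q of the listed genes was 0.446 in liver and 0.347 in kidney. At an unadjusted permutation p under 0.05 there were 3 genes in liver, all positive, and 8 in kidney, of which 4 were positive and 4 negative, while 8.06% of all genes in liver and 7.17% in kidney passed that limit. In kidney *Acot1* had r = 0.478 (rho = 0.499, permutation p = 0.00075 and 0.00043) and *Acot2* r = 0.466 (rho = 0.460, p = 0.00091 and 0.00132), and in liver *Acot1* had r = 0.381 (rho = 0.357, p = 0.0082 and 0.0143). *Cyp4a10*, the neighbour of *Cyp4a14* in the same gene family, had r = 0.834 in liver (permutation q = 0.0589) and 0.605 in kidney (q = 0.104). Other textbook targets that were tested followed *Cyp4a14* less closely, from -0.134 (*Fabp1*) to 0.346 (*Slc25a20*) in liver. In kidney they ran from -0.334 (*Cd36*) to 0.586 (*Cyp4a31*). None of these other targets was called, so r with *Cyp4a14* does not measure the pathway as a whole. The livers with most *Acot3* were low for *Cyp4a14*, with 0.132 CPM in CC012, the lowest of all strains, and 1.62 CPM in CC032. A few other targets were looked at after these values were seen, and they do not stand for the whole list. *Cyp4a10* was near its median of 58.5 CPM in both (50.5 and 54.0 CPM). *Ehhadh* (497 and 473 CPM, median 390), *Pdk4* (9.74 and 5.34 CPM, median 5.16) and *Vnn1* (31.1 and 29.6 CPM, median 9.50) were above theirs. The livers with most *Acot1* had 365 (CC021), 2717 (CC015) and 1129 CPM (CC055) of *Cyp4a14*. *Vnn1* did not follow *Cyp4a14* in CC015, where it was below its median at 3.84 CPM.

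Genes of the list also followed each other. Each gene was compared with every other gene of the tissue, and a pair was taken where each was among the 10 genes most like the other. A q from a gene is adjusted over all genes compared with it. *Acot3* and *Acot4* in liver had the highest value, r = 0.848 (rho = 0.843, p = 1e-05 for both, the smallest that the permutations can give, q = 0.00552 from *Acot3* and 0.00803 from *Acot4*, each over 8835 genes), and each was the gene most like the other. Without CC012 and CC032 r was 0.824. In the kidney the same pair was not among those taken. *Acot1* and *Acot2* formed a pair in kidney (r = 0.684, rho = 0.715, permutation p = 1e-05 for both, q = 0.0522 from *Acot1* and 0.0348 from *Acot2*) and in lung (r = 0.579, rho = 0.546, p = 3e-05 and 9e-05, q = 0.0514 from *Acot1* and 0.16 from *Acot2*), and these are the genes with the identical stretch shown above. *Acnat1* and *Acnat2* paired in kidney (r = 0.646, rho = 0.627, permutation p = 1e-05 for both, q = 0.0348 from *Acnat1* and 0.104 from *Acnat2*), as did *Acsm1* and *Acsm5* (r = 0.671, rho = 0.680, permutation p = 1e-05 for both, q = 0.0348). In the kidney pairs of *Acot1* with *Acot2* and of *Acnat1* with *Acnat2* the copies share read windows. Only uniquely aligned reads were kept, so a read that aligned to both copies was dropped. Whether other reads were placed on the wrong copy was not tested.

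**Figure D5:**
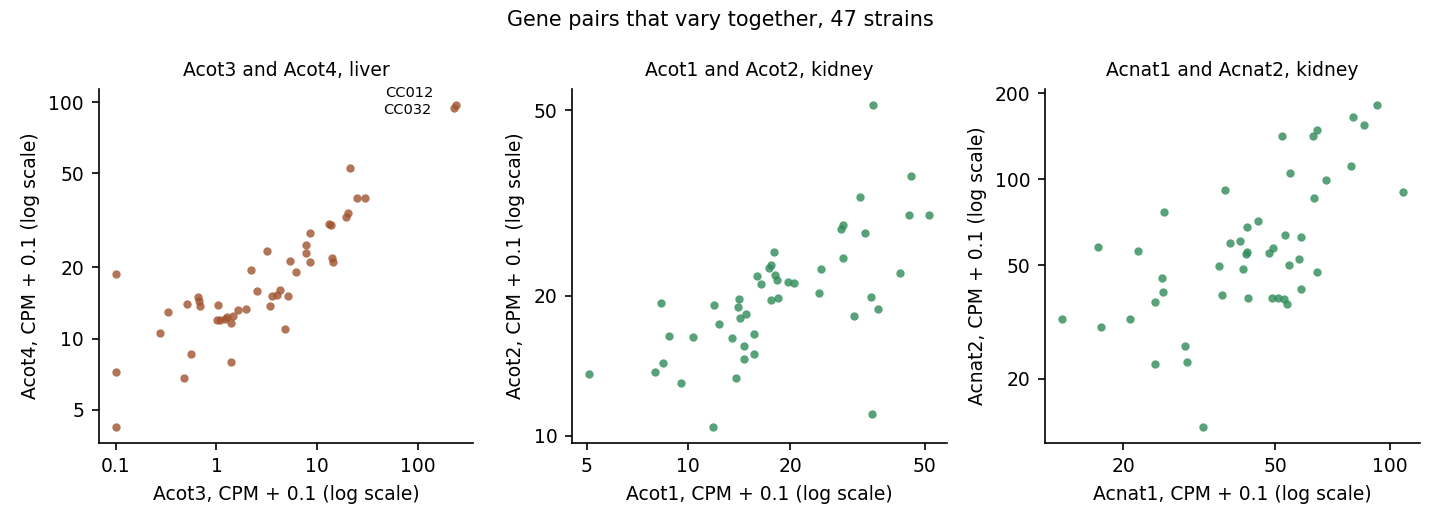
CPM + 0.1 on log axes for *Acot3* against *Acot4* in liver, *Acot1* against *Acot2* in kidney and *Acnat1* against *Acnat2* in kidney, with 1 point per strain. The livers of CC012 and CC032 lie at the upper right of the first panel, and r on rank inverse normal values was 0.824 without them.

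In kidney the pairs joined peroxisomal, cytosolic and mitochondrial enzymes. *Acot3* was paired with *Acnat1* (r = 0.629) and with *Acot2* (0.629), and *Acot2* with *Acnat1* (0.584) and *Acot6* (0.556), and *Acot1* with *Acot4* (0.570). For these 5 pairs rho lay between 0.573 and 0.671 with permutation p from 1e-05 to 8e-05, and q from either gene lay between 0.0149 and 0.0627, except from *Acot1* with *Acot4* (0.104) and from *Acot6* with *Acot2* (0.575). For all 5, r without the 2 farthest strains lay between 0.544 and 0.658. *Acnat1* lies on chromosome 4 and the Acot cluster on chromosome 12, so these pairs are not all neighbours on a chromosome.

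The genes most like each listed gene, up to 3 per tissue, are given as a description, since they were chosen for their r among all genes of the tissue. In liver *Acsl5* was nearest to *Elovl5* (0.675), a fatty acid elongase, and had *Scd1*, a fatty acid desaturase, as the third (0.638). *Acsm1* was nearest to *Acadsb* (0.707), which oxidises short branched acyl-CoA, followed by *Dlst* (0.631) and *Ivd* (0.626). *Acot1* in liver was nearest to *Fitm2* (0.727), a gene of lipid droplet formation, followed by *Acaa1b* (0.714), a peroxisomal thiolase, and *Slc25a20* (0.678), the mitochondrial carnitine carrier. *Acot12* was nearest to *Pnpla8* (0.715) in liver and to *Slc27a2* (0.686) in kidney. *Acot8* in liver was nearest to *Acadvl* (0.617). In lung *Acsm5* was nearest to *Slc27a2* (0.587) and *Acsbg1* to *Tgm3* (0.816), where the 3 lungs named above lie at the top of both.

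Some of the nearest genes were also neighbours on the chromosome. In kidney 15 of 56 nearest genes with a position on NCBIM37 (26.8%) lay within 5 Mb of the listed gene, in liver 5 of 47 (10.6%) and in lung 3 of 40 (7.5%). Only 5 of these 15, 2 of these 5 and 1 of these 3 were genes outside the list. The others were listed genes of the same cluster, where a pair can count from either side and some copies share read windows. The share of all genes that lies so close was a median of 0.496%, 0.471% and 0.420%. In kidney, *Acsm1* was nearest to *Pdilt* (0.701) and had *Crym* (0.647) as the third, both in the same stretch of chromosome 7, and *Acot13* was nearest to *Gmnn* (0.550), which is 0.056 Mb away. *Acsm3* was nearest to *Eri2* in kidney (0.758), the gene that shares its exon bases, with a rho of 0.763 in kidney and 0.222 in liver.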

How the data were processed

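The 141 RNA-seq libraries came from 47 Collaborative Cross strains, and each library's tissue and strain were taken from its labels, which name no batch. The authors' models held a term for sequencing batch, and it could not be fitted here. Total RNA with an integrity value of at least 7 was ribosome-depleted, and the authors used STAR 2.5.3a to align single-end reads of 50 bases to a pseudo-genome made for each strain from Build37 (mm9) and quantified them with RSEM, keeping uniquely aligned reads. The expected counts deposited by the authors are on the scale of reads, and 25 values that were not whole were rounded. The TPM deposited by the authors corrects them for transcript length and library size. The deposited FPKM values were not used. No columns of other series were present.

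Counts were scaled by TMM (edgeR 4.0.16) and tissues compared by limma-voom in R 4.3.3 (limma 3.58.1), in which strain was the replicate block, with Benjamini-Hochberg adjustment over 12127 genes. The 3 libraries of a strain come from the same mouse, and their deviations from the tissue means correlated with a median r of 0.179 to 0.215, against about 0 for libraries of different strains (-0.005 to -0.008). Simulated data held no strain effect, and 200 of 12127 genes were changed in lung. In the lung and kidney comparison, 197 of the 200 had a q of at most 0.1. With the fold change threshold added, 100 of 100 genes with a 4-fold change were called, as was 1 unchanged gene. Values were turned into rank inverse normal scores for correlations over strains, which were tested with 100000 two-sided permutations (numpy 2.4.6, scipy 1.17.1). P-values of the tissue comparison are set against the spread that is left between mice after tissue and strain are fitted. Those of the correlations come from shuffling the strains. No strain was sampled more than once. A value of 3 counts or fewer was treated as not resolved, and such floors cover counting error only. Sequence identity and 50-base windows used the GENCODE vM1 transcripts of NCBIM37, and promoters the RefSeq table of GRCm38.p6, which held 24 of the 27 genes.

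The genes and lists were chosen with earlier results of these data known. Genes given with full values were the most abundant of each family per tissue, the 3 with the largest change per direction and tissue pair at a mean of at least 10 CPM, the 5 with the largest r between tissues, the 3 with the largest spread per tissue at a mean of at least 5 CPM, and the most changed gene of each list. Other genes are named by counts and ranges or were singled out after their values were seen, as were CC006, CC012, CC032, CC033, CC035 and the 3 lungs with the highest *Acsbg1*. Alternatives covered the scaling, the low-count filter, the block, shallow libraries, the thresholds, TPM, and the tests of edgeR and DESeq2 1.42.0. Chromatin accessibility and genotypes were not analysed here.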

Additional observations from a re-analysis of the deposited data

How the results depend on the processing

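The 57 tissue fold changes of the 19 genes were recomputed under 13 alternatives, of which 4 that leave out strains were added after seeing the data. Of these 741 values 692 kept their direction and side of the threshold, 16 lost a call, 31 gained one and 2 reversed. With the low-count filter removed, DESeq2 size factors, without strain CC006, or without CC033 and CC035, 55, 54, 57 and 56 of the 57 were the same. In the fit with no replicate block, in place of the paired design, 56 were the same and *Acot4* was called lower in liver than in kidney (-1.02). The block changed no other call. *Acot4* lay just under the threshold in the main fit (-0.97). It was also called with DESeq2 size factors (-1.07), the edgeR test (-1.06) and the DESeq2 test (-1.19), among others. Without CC012 and CC032, 54 of the 57 were the same and *Acot4* was again called (-1.14). Most changes came on the TPM scales. *Acot8* turned from 1.27 to -0.157 on log2(TPM + 1) and -0.160 on log2(TPM + 0.1) for liver minus lung, and 7 genes rather than 3 were lower in liver than in lung on either scale. With no fold change threshold 5 genes were lower in liver than in lung, and 6 rather than 3 were higher in liver than in kidney. *Acsbg1* lost its call between liver and kidney in a fit of these 2 tissues alone (-0.63). For shared strain patterns, TPM as deposited left 0 of the 2 calls between liver and lung, and a q threshold of 0.01 left 1 between liver and lung, 3 between liver and kidney and 1 between lung and kidney. The cause of these changes was not tested, other than that a stricter threshold calls fewer genes. Leaving out 1 replicate was not run, since a tissue has 47. With 1738046 to 42158454 counts per library, genes near 3 counts are limited by depth.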
